A study of Homo sapiens with 17 samples.

Results

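The transcripts described here are short noncoding RNAs made by RNA polymerase III (Pol III): BCYRN1, RN7SK, RN7SL1, RN7SL2, RMRP and RPPH1. Members were chosen by name in the gene column of the count table, and BCYRN1 was also selected on its measured enrichment, since it led the rise over input in the pull-down after the knockdown. Of the 6 names, 3 had a row, out of 23368 rows in all, namely BCYRN1, RMRP and RPPH1. RN7SK, RN7SL1 and RN7SL2 were not analysed here. The values that chose BCYRN1 are given below as a description with no test, and the same holds for the BCYRN1 row in every comparison that uses the siTDP43 IP or input libraries. RMRP and RPPH1 are given with no test in IP over input of siTDP43 and in its change between genotypes.

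The RNA came from HEK293T, a human embryonic kidney cell line, and was measured by acRIP-seq, an assay that sequences RNA captured by an antibody to the modified base N4-acetylcytidine (ac4C). Cells of genotype WT and cells treated with siRNA against TARDBP, the gene of the RNA-binding protein TDP43 (siTDP43), each gave input RNA taken with no antibody, RNA captured by the anti-ac4C antibody (IP) and RNA captured by a control antibody (IgG), in 3 libraries a group except WT IgG with 2. All groups started from RNA selected on oligo(dT) beads, and complementary DNA was primed with oligo(dT), so an RNA without a poly(A) tail or an internal run of A was not the intended template. The labels name no control siRNA for the WT cells, and nothing says that replicates came from separate cultures, so p-values measure the spread between these libraries, which may be technical.

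Total counts ranged from 24542434 to 36583436 in the 6 input libraries, from 8610070 to 21066215 in the 6 IP libraries and from 3013989 to 9466855 in the 5 IgG libraries. TARDBP had 150, 158 and 152 CPM (the counts-per-million unit, on library sizes scaled by TMM) in WT input and 99.1, 102 and 106 CPM in siTDP43 input, with no overlap of the groups. Its log2 change was -0.57 (SE 0.0451, edgeR quasi-likelihood test, adjusted p = 6.55e-13). Of 5 HEK293-like markers (PAX2, LHX1, NEFL, NEFM and ENO2), 5 had counts in the inputs, with a summed level of 184 to 194 CPM in WT and 264 to 283 CPM in siTDP43, against 6.63 to 7.79 and 1.21 to 2.25 CPM for 4 markers of other cell types, of which 2 had counts. NEFL, NEFM and ENO2, at 65.4, 66.3 and 55.4 CPM in WT input, made up most of the first sum. PAX2 and LHX1 were low, at 0.885 and 0.855 CPM in WT input and 0.0975 and 0.371 CPM in siTDP43 input. Both lay below COL1A1, a marker of another cell type, at 7.34 and 1.7 CPM. The markers did not move together: of 4 tested in the inputs, NEFL was called higher in siTDP43 (65.4 to 186 CPM) and the other 3 lower, with a median log2 change of -0.45. All levels are shares of a library, so fewer cells of a type and less RNA per cell cannot be told apart.

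Pol III makes transfer RNA, 5S ribosomal RNA and a set of small RNAs that work inside protein complexes. Its transcripts end in a run of U and carry no poly(A) tail added by the mRNA machinery. RMRP is the RNA of RNase MRP, which cuts precursors of ribosomal RNA, and RPPH1 is the catalytic RNA of RNase P, which trims the front end of precursor transfer RNA. BCYRN1, also called BC200, is a primate RNA known from neurons and many tumours, whose first part descends from an Alu element and whose middle is rich in A. RN7SK holds the elongation factor P-TEFb inactive, and RN7SL1 and RN7SL2 are the RNA of the signal recognition particle.

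The rows were first set against the genome, because the identity of the BCYRN1 row decides what its values are. On hg19 (GRCh37) the row named BCYRN1 was made of 4 blocks on the minus strand of chromosome X of 139, 22, 11 and 19 bases. The GENCODE annotation lifted to the same build places the gene BCYRN1 on chromosome 2, a single exon of 200 bases, over which no row of the table lay. The block of 22 bases lies in the gene GCNA and is shown for its run of A, in capitals, the longest in the sequences printed here.
BCYRN1 row, block in GCNA, chrX:70803855-70803876, minus strand, 22 bases: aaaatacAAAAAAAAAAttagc
In a global alignment the longest block and the start of the gene shared 139 of 140 columns (99.3%), with 0 mismatches and a gap of 1 base, and the longest identical run was 92 bases. A read that lies within this run cannot be assigned to 1 of the 2 places by its sequence alone. Only uniquely aligned reads were counted, so the counts of the row are of reads that the aligner placed uniquely on chromosome X. Which place the reads of this row came from was not tested, and the values below belong to the row, not to an RNA known to be BC200.

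The RMRP row lies where the annotation puts its gene, while no gene named RPPH1 was found in the annotation. RMRP and RPPH1 are shown because they lack a run of A like the one above, so no base is in capitals.
RMRP row, chr9:35657748-35658015, minus strand, 268 bases: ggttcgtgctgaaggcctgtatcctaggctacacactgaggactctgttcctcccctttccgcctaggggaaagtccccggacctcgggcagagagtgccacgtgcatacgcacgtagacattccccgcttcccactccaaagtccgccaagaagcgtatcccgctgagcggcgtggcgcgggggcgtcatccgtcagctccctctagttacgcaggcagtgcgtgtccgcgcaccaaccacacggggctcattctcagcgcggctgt
RPPH1 row, first 300 bases of 341, chr14:20811230-20811570, minus strand: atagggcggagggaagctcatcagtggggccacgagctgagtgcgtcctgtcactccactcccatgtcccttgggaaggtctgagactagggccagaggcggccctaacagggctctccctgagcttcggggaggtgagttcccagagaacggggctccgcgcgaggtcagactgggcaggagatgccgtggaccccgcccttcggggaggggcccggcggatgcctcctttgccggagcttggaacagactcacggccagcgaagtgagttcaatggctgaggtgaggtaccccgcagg
The longest run of A was at least 10 bases in the BCYRN1 row, as in the block above, 3 in RMRP and 2 in RPPH1. A run of at least 6 A was held by 4.69% of the 1750 rows of at most 400 bases with a sequence in the assembly. No other row or gene of the annotation lay over RMRP. The RPPH1 row overlaps a gene of the annotation known here by its identifier only (ENSG00000259001). Whether it is a gene apart from RPPH1 was not tested, and its reads could not be told from those of RPPH1 by position.

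A run of 4 or more T, the usual Pol III stop, lay within 50 bases of the end of RMRP (6 T) and of RPPH1 (5 T). By composition RMRP was 34.7% C and RPPH1 29.9% C. These letters describe the windows only.

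In input RNA all 3 rows were close to the limit of detection. The BCYRN1 row had 10, 9 and 11 counts in the WT inputs and 2, 0 and 7 counts in the siTDP43 inputs. RMRP had 0, 2 and 4 counts in WT and 0, 0 and 2 counts in siTDP43. RPPH1 had 0, 14 and 2 counts in WT and 14, 6 and 8 counts in siTDP43. Scaled to CPM, the groups overlapped for all 3, since the highest siTDP43 library of the BCYRN1 row (0.249 CPM) lay above the lowest WT library (0.23 CPM). A count of 0 allows up to 3 counts, which is 0.0766 to 0.118 CPM in these 6 libraries, so a level in that range was not detectable at this depth. If both mates of a pair were counted, the limit would be 3 read pairs and thus higher in CPM.

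None of the 3 passed the low-count filter in the fit of the inputs, where 38.6% of 14036 genes were called higher and 40.6% lower in siTDP43 at an adjusted p under 0.05. Without that filter the edgeR quasi-likelihood test gave RMRP a log2 change of -1.12 (adjusted p = 0.6) and RPPH1 1.15 (adjusted p = 0.269), and the BCYRN1 row had a value of -1.42 with no test. With so few counts, no difference between the genotypes in input was detectable for RMRP and RPPH1.

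As shares of a library, these rows were far higher in both pull-downs of WT cells than in the input. Each was higher with the control IgG than with the anti-ac4C antibody. The BCYRN1 row had 7.12, 8.97 and 9.09 CPM in WT IP and 16.4 and 13.6 CPM in WT IgG, against 0.332, 0.23 and 0.314 CPM in WT input. RMRP had 0.662, 0.328 and 0.71 CPM in WT IP and 7.11 and 11.5 CPM in WT IgG, against 0, 0.0511 and 0.114 CPM in input. RPPH1 had 2.03, 2.05 and 2.66 CPM in WT IP and 9.99 and 11.5 CPM in WT IgG, against 0, 0.358 and 0.0572 CPM in input. The order input, IP, IgG held for each row with no overlap between neighbouring groups. How many of all genes stood in such an order was not counted.

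In the edgeR quasi-likelihood fit of the 8 WT libraries, a gene was called where its adjusted p was under 0.05 and it differed by more than 2-fold. IP over input was called higher for all 3 rows, where 30.2% of 14751 genes were called higher and 27.3% lower: the log2 change was 4.85 (SE 0.258, adjusted p = 1.31e-14) for the BCYRN1 row, 3.20 (SE 0.694, adjusted p = 0.000187) for RMRP and 3.85 (SE 0.5, adjusted p = 1.75e-07) for RPPH1. All 3 passed the filter on low counts only through their pull-down libraries, so a rise over input was built into being tested and the count of 3 supports nothing further. IgG over input was also called higher for all 3, by 5.73 (SE 0.273, adjusted p = 2.14e-15), 7.27 (SE 0.583, adjusted p = 4.28e-11) and 6.16 (SE 0.492, adjusted p = 3.99e-11) in the same order, where 24.4% of genes were called higher and 36.6% lower. Single inputs decided the sizes: without WT input replicate 2 the RPPH1 values were 5.96 for IP and 8.27 for IgG over input, and without WT input replicate 3 those of RMRP were 4.07 and 8.14.

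Against the control antibody the direction turned. IP over IgG had a log2 change of -4.08 for RMRP (SE 0.46, edgeR adjusted p = 2.49e-08) and of -2.30 for RPPH1 (SE 0.379, adjusted p = 7.25e-06), and both were called, where 35.2% of genes were called higher and 17.8% lower. The BCYRN1 row had a log2 difference of -0.88 (SE 0.2, adjusted p = 0.000351), below the 2-fold limit for a call. Without the WT IgG replicate 2 library it passed that limit. The comparisons with input and with IgG share libraries, so they are not independent of each other.

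**Figure D1:**
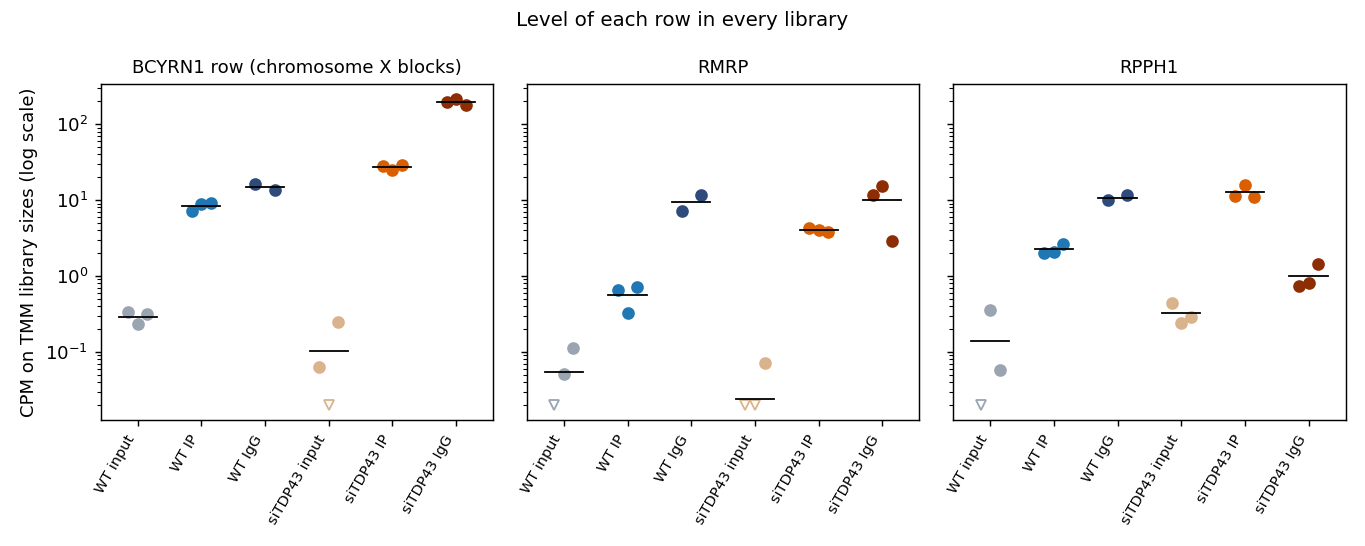
Level of the BCYRN1, RMRP and RPPH1 rows in every library, in CPM on TMM library sizes on a log scale, by group. Points are libraries, black lines are group means, and open triangles mark libraries with a count of 0, drawn at the foot of the axis. The BCYRN1 row was highest in siTDP43 IgG (181 to 215 CPM), and RPPH1 was near 1 CPM there against 11 to 16 CPM in siTDP43 IP.

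In siTDP43 the BCYRN1 row was at its highest values in both pull-downs, and the libraries of the control antibody held the most. It had 28, 25.2 and 28.9 CPM in siTDP43 IP and 194, 215 and 181 CPM in siTDP43 IgG, against 0.0634, 0 and 0.249 CPM in siTDP43 input. The log2 difference was 8.05 for IP over input, the contrast that chose it, where 26.8% of 12746 genes were higher and 25.4% lower by adjusted p and fold. It was 10.97 for IgG over input and -2.92 for IP over IgG, again as values with no test. Every siTDP43 IgG library lay above every siTDP43 IP library.

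The inputs behind these folds were few. Over the 3 siTDP43 inputs the row had 9 counts, or 5 read pairs if both mates were counted, and the ratio of IP to input was 233 in pairs, with an exact 95% Poisson interval of 99 to 720 that covers counting error only. Without the siTDP43 input replicate 3 library the log2 difference of IP over input was 9.37, against 8.05 with it, and that of IgG over input 12.29, against 10.97.

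RMRP was also higher in the siTDP43 pull-downs than in the input. It had 4.31, 4.06 and 3.74 CPM in siTDP43 IP and 11.8, 15.4 and 2.85 CPM in siTDP43 IgG, and a single library of the input had any counts, 2 in all. The log2 value for IP over input was 7.10, given with no test, and the ratio in read pairs was 174 with an interval of 30.1 to 6960. For IgG over input the edgeR log2 change was 8.47 (SE 0.768, adjusted p = 1.05e-09), and the ratio in read pairs was 414 with an interval of 70.1 to 16800. Here 24.7% of genes were called higher and 41% lower. As in WT, the rows passed the low-count filter only through their pull-down libraries, so the rise over input was built into being tested. Without the siTDP43 input replicate 3 library every input was at 0 for RMRP, and no fold over input could be given.

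The siTDP43 IgG libraries did not agree on RMRP. Replicate 3, at 2.85 CPM, lay below all 3 IP libraries and the other two lay above them. The log2 difference of IP over IgG was -1.37 (SE 0.492, edgeR adjusted p = 0.0164), where 34% of genes were called higher and 15% lower. The call was lost without IgG replicate 1 (-1.22, adjusted p = 0.0639) and without IgG replicate 2 (-0.92, adjusted p = 0.153).

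RPPH1 was higher with the anti-ac4C antibody than with IgG in siTDP43. It had 11.2, 16 and 11 CPM in siTDP43 IP but 0.735, 0.809 and 1.42 CPM in siTDP43 IgG, from 2, 2 and 4 counts, and 0.444, 0.237 and 0.285 CPM in siTDP43 input. IP lay above IgG in every library, and IgG above input. IP over IgG rose by 3.59 on the log2 scale (SE 0.481, edgeR adjusted p = 9.33e-07), and IP over input had a value of 5.40, with no test. RPPH1 passed the low-count filter of this fit through its IP libraries, so a rise of IP over IgG was favoured by being tested. IgG over input was 1.81 (SE 0.717, adjusted p = 0.0241), but the ratio of read pairs was 3.04 with an interval of 0.728 to 9.67, and the call was lost without IgG replicate 3 (1.43, adjusted p = 0.16).

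**Figure D2:**
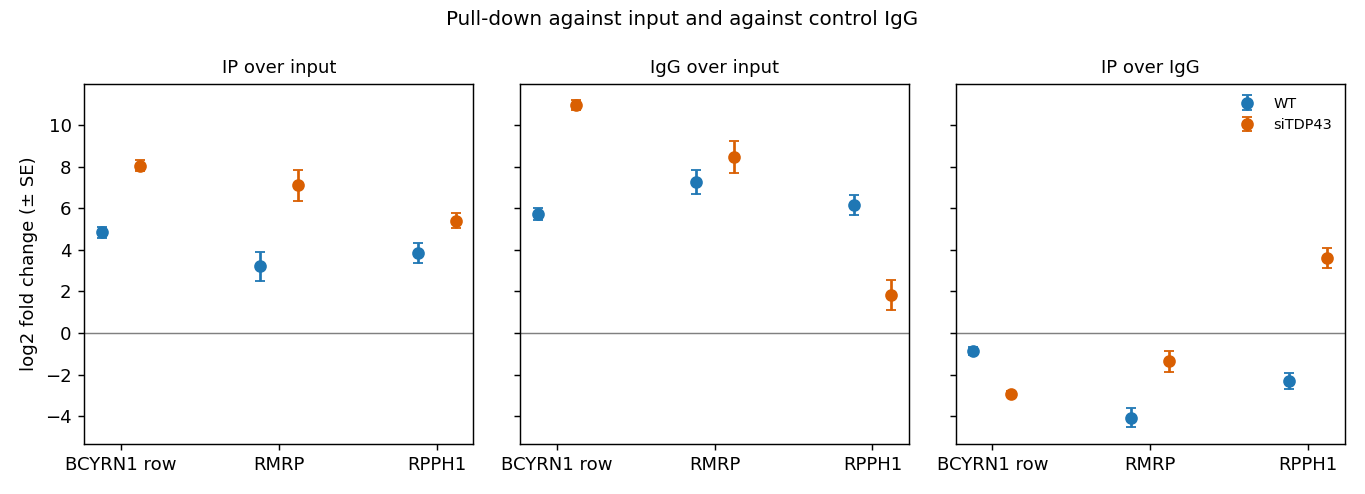
Log2 fold change of IP over input, IgG over input and IP over IgG for the 3 rows in WT (blue) and siTDP43 (orange), with bars of 1 SE from the edgeR fits. Values of the BCYRN1 row in siTDP43, and all values of IP over input in siTDP43, are descriptions with no test. RPPH1 was on opposite sides of 0 for IP over IgG, at -2.30 in WT and 3.59 in siTDP43.

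The difference between genotypes was then tested as an interaction over all 17 libraries, and calls between genotypes used an adjusted p under 0.05 alone. The change of IP over IgG was 5.94 on the log2 scale for RPPH1 (SE 0.654, edgeR adjusted p = 3.83e-10) and 2.76 for RMRP (SE 0.692, adjusted p = 0.000652), both higher in siTDP43, where 34.9% of 15165 genes were called higher and 25.9% lower. The BCYRN1 row had a value of -1.99 with no test. For the change of IP over input, which includes the contrast of the choice, the values were 3.09, 3.91 and 1.42 for the BCYRN1 row, RMRP and RPPH1. These rest on the input counts: the value of the BCYRN1 row was 4.51 without the siTDP43 input replicate 3 library, that of RMRP was 3.05 without WT input replicate 3, and the RPPH1 value was -0.66 without the WT input replicate 2 library, which held 14 of the 16 WT input counts.

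Set side by side by antibody, the 3 rows differed between genotypes in IP in one direction and in IgG in several. In IP, siTDP43 was above WT with no overlap for all 3, by 2.81 for RMRP (SE 0.401, edgeR adjusted p = 2.93e-06), by 2.49 for RPPH1 (SE 0.248, adjusted p = 2.35e-08) and by 1.69 for the BCYRN1 row with no test, where 36.7% of 13731 genes were called higher and 46.5% lower. In IgG the BCYRN1 row rose by 3.74 (SE 0.151, adjusted p = 2.17e-12), RPPH1 fell by 3.38 (SE 0.544, adjusted p = 2.98e-05) and RMRP had a difference of 0.12 (SE 0.506, adjusted p = 0.839) with overlapping groups, where 34.8% of 10790 genes were called higher and 45.1% lower. RMRP passed the low-count filter in IP through siTDP43 IP, since WT IP held 8 to 16 counts of it. RPPH1 passed that in IgG through WT IgG. The rise of RMRP and the fall of RPPH1 were thus favoured by being tested. How many of all genes were apart in every IP library was not counted. The IgG libraries of siTDP43 were also the shallowest, and the part of depth in the differences between genotypes was not tested.

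Levels were compared between the rows per kilobase of the lengths in the table. In siTDP43 IgG the BCYRN1 row had 1030 ± 88.7 reads per kilobase on the CPM scale (SD, n = 3), RMRP 37.3 ± 24.1 (n = 3) and RPPH1 2.9 ± 1.11 (n = 3). In WT IgG the means were 78.5, 34.8 and 31.6 (n = 2), and RMRP and RPPH1 did not differ beyond their spread. In siTDP43 IP the order was 143 ± 9.91 for the BCYRN1 row, 37.4 ± 8.35 for RPPH1 and 15.1 ± 1.08 for RMRP (n = 3), and in WT IP it was 44 ± 5.78, 6.59 ± 1.06 and 2.11 ± 0.777 (n = 3). The ratio of RMRP to RPPH1 per kilobase was 0.203 to 0.489 in the 6 IP libraries. It was 0.904 and 1.27 in WT IgG and 20.3, 24.2 and 2.54 in siTDP43 IgG, where RPPH1 rests on 2, 2 and 4 counts, so RMRP was above RPPH1 in every siTDP43 IgG library and below it in every IP library.

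Across the 6 groups the mean level of the BCYRN1 row rose from siTDP43 input (0.104 CPM) through WT input (0.292), WT IP (8.39), WT IgG (15) and siTDP43 IP (27.4) to siTDP43 IgG (197), and each pair of neighbours from WT input upward was apart in every library. RMRP ran from siTDP43 input (0.0237) and WT input (0.0551), which overlapped, through WT IP (0.567) and siTDP43 IP (4.04) to WT IgG (9.32) and siTDP43 IgG (9.99), which overlapped as well. RPPH1 ran from WT input (0.138) and siTDP43 input (0.322), which overlapped, through siTDP43 IgG (0.99), WT IP (2.25) and WT IgG (10.8) to siTDP43 IP (12.7), and the last pair overlapped. The genes whose log2(CPM + 1) followed each row most closely over the 17 libraries, among 10140 genes with a mean of at least 100 counts, were ROMO1 (Pearson r = 0.995) and LIPE (0.991) for the BCYRN1 row, COX16 (0.957) and ZNHIT1 (0.951) for RMRP, and TFPT (0.933) and UBL3 (0.927) for RPPH1. These correlations are descriptions over libraries that fall into 6 groups.

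Most other short Pol III RNAs tested were higher in the IgG pull-down than in input too. Of 25 names listed (Y RNAs, vault RNAs, U6 and U6atac RNAs, 5S RNAs and snaR RNAs), 19 had a row, 9 of these were at 0 in all 17 libraries and 10 had a count. The snaR RNAs are a primate family of near-identical copies, so unique reads could be split among copies or lost and their values are uncertain. The summed level of the list was 11.7 to 13.1 CPM in WT input, 56.1 to 62.2 in WT IP, 312 to 348 in WT IgG, 6.15 to 10.9 in siTDP43 input, 214 to 356 in siTDP43 IP and 1750 to 2010 in siTDP43 IgG. Apart from siTDP43 IP and WT IgG, which overlapped, the groups stood in the order of the BCYRN1 row. SNAR-E and SNAR-G1 made up most of the sum in siTDP43 IgG, at means of 1000 and 678 CPM.

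SNAR-E, the most abundant of them, had 5.67, 4.78 and 5.8 CPM in WT input, 20.2, 24.7 and 22.3 CPM in WT IP, and 152 and 161 CPM in WT IgG. After the knockdown it had 3.3, 4.58 and 6.01 CPM in input, 130, 172 and 216 CPM in IP, and 891, 1030 and 1080 CPM in IgG. Both pull-downs lay above input and IgG above IP in every library of each genotype. Its log2 change was -2.84 (SE 0.0936, edgeR adjusted p = 6.3e-18) for IP over IgG in WT and -2.61 (SE 0.142, adjusted p = 2.18e-12) in siTDP43, and the change between the genotypes was 0.28 (SE 0.176, adjusted p = 0.174).

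In WT, 8 RNAs of the list were tested. Of the whole list 4 (VTRNA1-3, SNAR-E, SNAR-G1 and SNAR-H) also passed the low-count filter in the fit of the inputs alone, and the others entered through their pull-down libraries, so that for them a rise over input was built in and the counts and medians against input are descriptions in both genotypes. IgG over input was called higher for 6 and lower for 0 (24.4% and 36.6% of all genes), with a median log2 change of 5.08 beside -0.39 over all genes tested. IP over input was called higher for 6 and lower for 0 (30.2% and 27.3% of all genes), with a median of 2.22 beside 0.01. IP over IgG was called higher for 2 and lower for 6 (35.2% and 17.8% of all genes), with a median of -2.08 beside 0.29. The 2 higher were VTRNA1-1, a vault RNA, and RNU6ATAC, the RNA of the minor spliceosome, each with 0 counts in both WT IgG libraries and thus at least 1.24-fold and 1.81-fold higher in IP by a floor of 3 counts per library. With such genes at their bounds the list medians stayed at -2.08 and 5.08, and those of all genes were 0.22 and -0.25. The bounds would be lower if both mates of a pair were counted. VTRNA1-1 and RNU6ATAC passed the low-count filter through their WT IP libraries, so IP above IgG was favoured by being tested. They had 15 and 22 counts in WT input, and IgG over input was not called for either.

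In siTDP43, 8 RNAs were tested as well. IgG over input was called higher for 8 (24.7% of all genes), with a median of 8.1 beside -0.58 over all genes. With bounds, which SNAR-I takes for its 0 in every siTDP43 input, the medians were 6.99 and -0.34. IP over IgG was called lower for 8 (15% of all genes), with a median of -2.61 beside 0.33, or 0.17 with bounds. The values ran from -3.53 (SE 0.319, edgeR adjusted p = 3.02e-09) for SNAR-D to -1.46 (SE 0.638, adjusted p = 0.0459) for SNAR-I. VTRNA1-2 and SNAR-I passed the low-count filter of this fit through their IgG libraries, so a lower IP was favoured by being tested. RPPH1, at 3.59 in the same fit, was outside this range. In the change of IP over IgG between the genotypes 9 were tested, 0 called higher and 3 lower (SNAR-D, SNAR-G1 and VTRNA1-1, the last at 0 in WT IgG). Of all genes 34.9% were called higher and 25.9% lower. SNAR-H, at 0.71 (SE 0.353, adjusted p = 0.0833), had the highest value of the list.

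Between the genotypes, the list was higher in siTDP43 in both pull-downs for most RNAs tested. In IP 5 of 7 were called higher and 1 lower (36.7% and 46.5% of all genes), with a median of 2.14 beside -0.23 over all genes. In IgG 7 of 8 were called higher and 1 lower (34.8% and 45.1% of all genes), with a median of 2.61 beside -0.31. The exception in both was VTRNA1-2, with 1.57, 2.05 and 2.71 CPM in WT IP and 0.298, 0.811 and 1.49 CPM in siTDP43 IP, a log2 change of -1.40 (SE 0.495, edgeR adjusted p = 0.0141). Its relative VTRNA1-3 went up, by 2.14 in IP (SE 0.236, adjusted p = 9.87e-08) and by 2.67 in IgG (SE 0.239, adjusted p = 4.14e-08). VTRNA1-1 in IP and IgG and SNAR-I in IgG passed the low-count filter through siTDP43 libraries, and VTRNA1-2 in IP through WT libraries. Their directions there were favoured by being tested. In input 4 of the list were tested and 1 was called, VTRNA1-3, lower by -1.48 (SE 0.264, adjusted p = 8.09e-06).

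**Figure D3:**
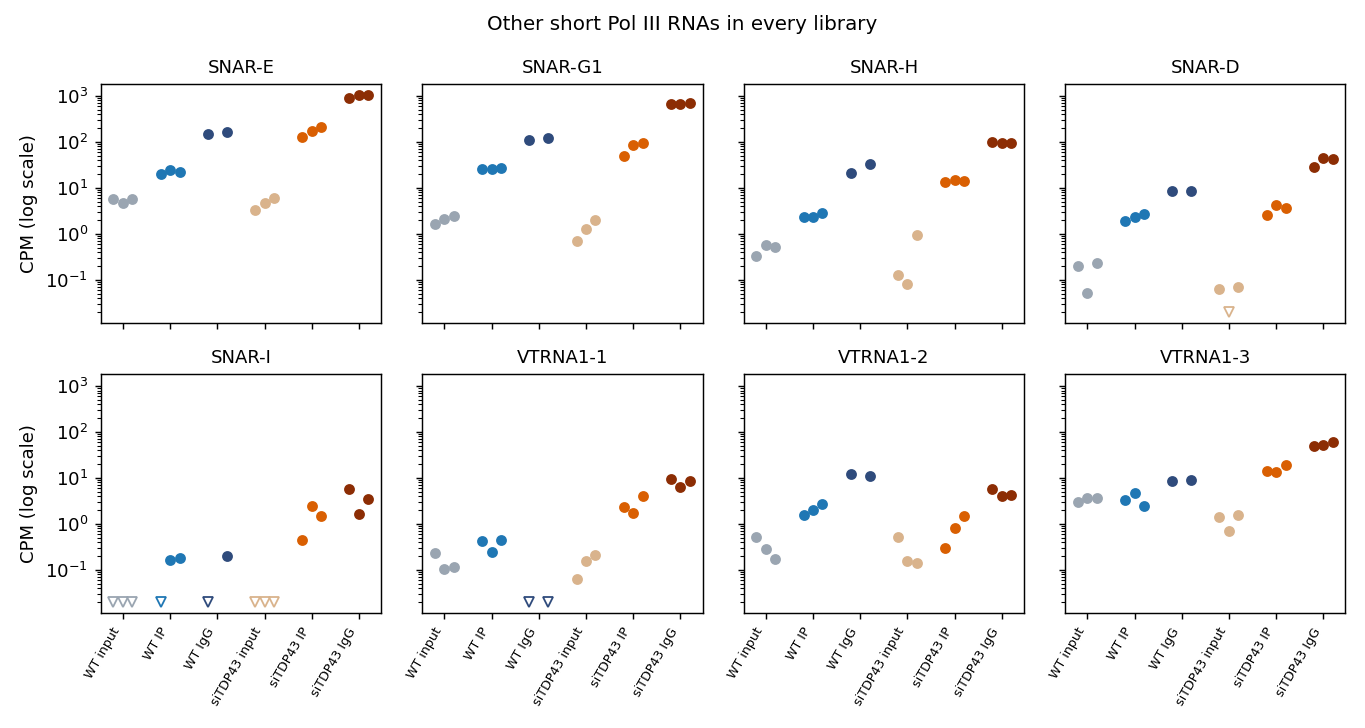
Level of 8 other short Pol III RNAs in every library, in CPM on a log scale, by group. Points are libraries and open triangles mark a count of 0, drawn at the foot of the axis. For SNAR-E, SNAR-G1, SNAR-H and SNAR-D every IgG library lies above every IP library of the same genotype, and VTRNA1-2 is the one that is lower in siTDP43 in both pull-downs.

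Short rows as a whole give the background for this list. Of the 1751 rows of at most 400 bases, 153 were tested in WT, where IgG over input was called higher for 42 and lower for 70, with a median of -3.24, or -0.17 with the rows at 0 in a group set to their bounds. In siTDP43, 95 were tested and IgG over input was called higher for 45 and lower for 33, with a median of 0.62, and 0.62 with bounds. Of all genes 24.4% were called higher and 36.6% lower in WT, and 24.7% and 41% in siTDP43. Of 400 rows named as small nuclear or nucleolar RNAs, 106 were tested in WT, with 19 higher and 57 lower, and 64 in siTDP43, with 19 higher and 30 lower.

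The mRNAs of the protein partners were in the same libraries. Of 6 SRP proteins, which bind the signal recognition particle RNA, 4 were called higher and 2 lower in siTDP43 input (38.6% and 40.6% of all genes), and 6 were called higher in siTDP43 IP than in WT IP (36.7% of all genes), from 0.55 (SE 0.0899, edgeR adjusted p = 1.62e-05) for SRP68 to 3.23 (SE 0.0722, adjusted p = 7.04e-18) for SRP9. SRP9 also had the largest input change of these 6, at 1.49 (SE 0.0368, adjusted p = 1.32e-25). In the change of IP over IgG 5 of the 6 were called higher and 0 lower (34.9% and 25.9% of all genes).

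The 10 proteins of RNase P and RNase MRP are the partners of RPPH1 and RMRP. In the change of IP over IgG 2 of them were called higher and 6 lower, beside the same 34.9% and 25.9% of all genes. Leaving aside RPP21, at 0 in WT IgG, they ran from -2.46 (SE 0.21, edgeR adjusted p = 6.35e-13) for POP1 to 0.77 (SE 0.123, adjusted p = 9.5e-07) for RPP30. In input 6 were called higher and 3 lower, beside 38.6% and 40.6% of all genes. The values ran from -1.53 (SE 0.402, adjusted p = 0.000998) for RPP21 to 1.59 (SE 0.0908, adjusted p = 2.37e-16) for POP1.

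For the polymerase itself, 9 of 13 Pol III subunits were called higher and 4 lower in siTDP43 input, with a median log2 change of 0.61 beside -0.05 over all genes, from -0.85 (SE 0.0735, edgeR adjusted p = 6.04e-12) for POLR3D to 1.82 (SE 0.0672, adjusted p = 3.31e-21) for POLR3B. Of 19 Pol III factors, 12 were called higher and 7 lower. All counts in input given here stand beside 38.6% of all genes called higher and 40.6% lower. Of 7 proteins of the 7SK particle and P-TEFb, 3 were called higher and 1 lower. The mRNAs of 4 other RNA-binding proteins (SSB, TROVE2, SYNCRIP and PABPC1) were called lower in siTDP43 IgG than in WT IgG, where 45.1% of all genes were lower. The values ran from -1.60 (SE 0.0639, adjusted p = 1.88e-12) for PABPC1 to -0.54 (SE 0.103, adjusted p = 0.00016) for SYNCRIP. In siTDP43 input 2 of the 4 were called higher and 1 lower. These shares stand beside backgrounds in which most genes were called, and no list was tested as a list.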

How the data were processed

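The values are raw counts per gene as the authors deposited them, not normalized. Per the labels and the study's methods, the authors trimmed reads with Trim Galore 0.6.7, aligned them with STAR 2.7.10a to hg19 for these cells and counted uniquely aligned reads with featureCounts 2.0.2. The annotation release and strand setting are not given in the sources used here, and positions in the table fit hg19, with 0 past a chromosome end. From 81.3 to 95.9% of the counts from 1 to 20 in a library were even, so mates of a pair may each have been counted. No molecular identifiers were used.

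Tests used edgeR 4.0.16 (R 4.3.3), a two-sided quasi-likelihood F test on TMM-scaled libraries. Genes were kept by filterByExpr (minimum count 10), with Benjamini-Hochberg adjustment over all genes tested. Inputs were fitted alone, WT and siTDP43 enrichment within a genotype, and the interaction over 17 libraries. CPM used TMM library sizes over all 17. The tests were checked on simulated data. Alternatives were DESeq2 1.42.0, edgeR on the size factors of DESeq2, scaling by total count, dropping the low-count filter or raising it to a mean of 50 counts, the replicate number as a block, halved counts and leaving out each library. Genes named were the members, the ends of each list, TARDBP and the 2 genes most like each member, and others such as SNAR-E, VTRNA1-2 and RNU6ATAC were named after their values were seen. The members and lists were chosen with earlier results of these data known. Sequences were read from GRCh37 by the positions in the table. A marker gene and some sequences of the BCYRN1 row are not reported here.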

Additional observations from a re-analysis of the deposited data

Results flagged for a closer look

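Results that differed between the genotypes under the same contrast were those of RPPH1 and RMRP in the change of IP over IgG. RPPH1 had a log2 change of 5.94, with IP below IgG in WT and above it in siTDP43, in every library. RMRP had a log2 change of 2.76, with IP below IgG in every library of WT and below 2 of the 3 IgG libraries in siTDP43. The siTDP43 IgG side of the first rests on 8 counts in all, and that of the second on 78.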

How the results depend on the processing

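With a mean of at least 50 counts over the libraries of the fit, RMRP and RPPH1 mostly dropped out of the fits, so the members called fell to 1 in WT IP over input, WT IgG over input, siTDP43 IP against WT IP and siTDP43 IgG against WT IgG, to 1 more than 2-fold changed in siTDP43 IP over input, and to 0 in WT IP over IgG, siTDP43 IP over IgG, siTDP43 IgG over input and the change of IP over IgG. For siTDP43 IP over IgG, 1 was called in place of 2 with the replicate block (RMRP -1.25, adjusted p = 0.0653), and 1 to 2 on leaving out each library. For siTDP43 IgG over input, 1 was called with total count scaling (RPPH1 1.27, adjusted p = 0.0932) and with counts halved and rounded up (RPPH1 1.80, adjusted p = 0.0883), and 1 to 2 on leaving out each library. The RPPH1 change of IP over input ranged from -0.66 to 1.90 on leaving out each library, reversed without WT input replicate 2 alone. The cause of these changes was not tested, beyond the fewer genes or libraries each one leaves. The replicate numbers paired nothing: of 40 same-numbered pairs of libraries, 1 had a correlation of residuals over 0.1 (range -0.04 to 0.11), and the replicate block changed no other call. Total count scaling moved mean levels by more than the spread of the libraries for the BCYRN1 row in WT IP (9.78 CPM), siTDP43 IP (24.6) and siTDP43 IgG (161), for RMRP in siTDP43 IP (3.62) and for RPPH1 in WT IP (2.62), and the median of all genes in siTDP43 IP over input from -0.09 to -0.43. Over the log2 changes of single members, 459 of 480 values under an alternative kept the side of the threshold or stayed within the spread. A turn of sign was not counted where neither value was called. RMRP in siTDP43 IgG against WT IgG was such a case, at 0.12 in the main fit and -0.34 to 0.60 in other settings. Outside such cases 1 value turned. Every comparison with input rests on 2 to 30 counts per member and genotype.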
